A study of Mus musculus with 9 samples.

Results

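The cytosolic ribosomal protein genes comprised 87 of the 16636 genes in the count table of E14 mouse embryonic stem cells. They were taken by symbol: Rpl or Rps followed by a digit, or Rplp0, Rplp1, Rplp2 or Rpsa, leaving out 5 pseudogene symbols with -ps and 10 kinases of the Rps6k family. The 87 members were 46 proteins of the large subunit, 31 proteins of the small subunit, 8 paralogs or copies (Rpl22l1, Rps27l, Rpl36al, Rpl39l, Rpl3l, Rpl7l1, Rpl10l and Rps27rt), and Rps19bp1 and Rps23rg1, which carry such a symbol but are not ribosomal proteins. E14 is an established wild-type line, grown here in 2i/LIF medium, in which inhibitors of MEK and GSK3 together with the cytokine LIF hold cells in the naive state. The cells formed 3 groups of 3 biological replicates: untreated; transfected with a luciferase siRNA that serves as control (siLuc); or transfected with siRNA to Stag3, which encodes a cohesin subunit known mainly from germ cells (siStag3). Each siRNA was given at 50 pmol at seeding and again on the next day, for 48 hours in all. All groups share the cell line and medium, and the untreated cells were not said to have received transfection reagent.

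Ribosomal proteins assemble with ribosomal RNA into the small subunit, which reads the mRNA, and the large subunit, which joins amino acids. Their mRNAs are among the most abundant in growing cells, and many start with a run of pyrimidines after a C, the 5′ terminal oligopyrimidine (TOP) motif, through which mTORC1 and LARP1 control their translation and stability. Most of these genes have many processed copies in the mouse genome, which makes their reads hard to assign to 1 gene.

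Total counts ran from 29332436 to 44527534 per library, and all 87 members passed the filter on low counts. Column headers gave a set number, and each group held 2 libraries of Set 1 and 1 of Set 3. What a set stands for is not given. The headers place the Set 3 library of siLuc in experiment 1 and those of untreated and siStag3 cells in experiment 5. Stag3 stood at 13.5 to 15.6 CPM, counts scaled to library size, in the siStag3 libraries and at 22.5 to 28.6 CPM in the other 6. The 8 naive stem cell markers summed to 4426 to 4950 CPM in every library. Such a sum does not show changes of single markers. At an edgeR adjusted p under 0.05, 1 of the 8 was higher and 2 were lower in Set 3 than in Set 1, against 21.4% and 21.2% of all genes. From untreated cells to siStag3, 1 of the 8 was lower, against 2.53% of all genes in either direction. In the other comparisons of groups 0 of the 8 passed. Markers of primitive endoderm summed to 1.57 to 2.54 CPM, those of fibroblasts to 1.59 to 2.86 CPM with Col3a1 and Lum at 0 in at least 1 library, and those of two-cell-like cells to 0.247 to 0.793 CPM.

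Copies come first, because 2 of the largest differences below belong to members with an identical copy in the same table. Rps27, a zinc-binding protein of the small subunit, lies on chromosome 3 (chr3:90212522-90213651, minus strand, GRCm38, GENCODE M21) with 4 coding exons. Rps27rt, its intronless copy, lies at chr9:114982366-114982739 (minus strand) with 1 coding exon, and the coding sequences of 252 bases are identical. Rps27l, the diverged paralog, differs at 60 of these positions. The coding sequence of Rps27, which is also that of Rps27rt, is shown above that of Rps27l, with the differing bases in capitals.
Rps27: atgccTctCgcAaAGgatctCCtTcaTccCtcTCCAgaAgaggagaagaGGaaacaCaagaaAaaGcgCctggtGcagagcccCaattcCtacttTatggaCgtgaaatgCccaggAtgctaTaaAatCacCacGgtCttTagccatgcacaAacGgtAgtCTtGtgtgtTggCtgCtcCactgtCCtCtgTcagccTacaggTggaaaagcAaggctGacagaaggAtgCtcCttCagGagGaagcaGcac
Rps27l: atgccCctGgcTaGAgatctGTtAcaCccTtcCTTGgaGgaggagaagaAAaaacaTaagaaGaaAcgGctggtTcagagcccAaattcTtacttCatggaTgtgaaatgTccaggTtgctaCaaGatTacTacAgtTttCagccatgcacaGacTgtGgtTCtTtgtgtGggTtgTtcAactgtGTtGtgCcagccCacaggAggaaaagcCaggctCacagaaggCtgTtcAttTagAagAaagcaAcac
Rpl39 and Rpl39l are shown the same way because the paralog was the 1 member that fell between the sets. They differ at 23 of 153 coding positions. Rpl39 (chrX:37082520-37085402, minus strand) has 3 coding exons and Rpl39l (chr16:10170226-10174911, plus strand) has 1.
Rpl39: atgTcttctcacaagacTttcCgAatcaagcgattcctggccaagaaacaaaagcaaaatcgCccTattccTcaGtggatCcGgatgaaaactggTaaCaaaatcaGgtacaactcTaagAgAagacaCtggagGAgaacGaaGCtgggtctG
Rpl39l: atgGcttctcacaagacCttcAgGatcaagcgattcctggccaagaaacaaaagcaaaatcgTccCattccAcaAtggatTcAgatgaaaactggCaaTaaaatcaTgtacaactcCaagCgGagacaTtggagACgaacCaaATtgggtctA

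Counts were divided very unequally between identical copies. Over the 9 libraries Rps27 held 2934 counts and Rps27rt held 181791, or 62.0 times as many. Rpl10, a protein of the large subunit that joins late in assembly, held 64069 counts, and Rpl10-ps3, whose 642 coding bases are identical, held 364616, or 5.69 times as many. Rpl10 is on the X chromosome (chrX:74270812-74273135) with 6 coding exons, and Rpl10-ps3 is a single coding exon at chr9:50344201-50344968. Rpl35 of the large subunit and Gm2000 differ by C117T, counted from 1 at the start codon with the base of Rpl35 first, and Gm2000 held 0.938 times the counts of Rpl35. Of the 87 members, 79 share over 50% of the 31-base words of their coding sequence with other genes of GENCODE M21, and the median share was 96.3%. Rpl3l and Rps19bp1 share none. The count of nearly every member is therefore uncertain where reads could go to a copy. Sums of Rps27 or Rpl10 with the identical copy, given below, mostly follow the copy, which holds more counts. Such a sum cannot tell a change of 1 gene from reads moved between the copies.

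Levels per coding length, as counts per coding kilobase scaled to the same total in every library, had a median of 1622 over the 46 large subunit proteins and 2010 over the 31 small subunit proteins. Rpl41 had the highest mean level at 14956 ± 2093 (SD, n = 9), but its coding sequence is 75 bases, and reads over its untranslated parts are divided by that length. The same division applies to every member, such as Rps29 with 168 coding bases in a transcript of 390, so ranks depend on it. Rps24 of the small subunit followed at 3847 ± 296 and Rps29, another zinc-binding protein of that subunit, at 3575 ± 645, which differ by less than their spread over libraries. At the lower end were Rpl3l, known from striated muscle, at 0.298 ± 0.115, Rps23rg1 at 5.54 ± 0.929 and Rps27 at 38.0 ± 15.9. Rpl12, which anchors the stalk of the large subunit, stood at 185 ± 39.6, Rps13 of the small subunit at 106 ± 11.4 and Rpl5, which carries the 5S ribosomal RNA, at 104 ± 12.2. All coding 31-base words of Rpl12, Rps13 and Rpl5 occur in other genes of the annotation, and whether this set their low levels was not tested. The same holds for all such words of Rpl41 and Rps29 at the upper end, so full sharing is not particular to low members.

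The comparison of siStag3 with siLuc asks what lowering Stag3 did beyond transfection. None of the 87 members passed an adjusted p of 0.05 in edgeR's quasi-likelihood test, against 0.0281% of the 14246 genes tested. An unadjusted p under 0.05 was found for 3 members (3.45%) and for 7.88% of all genes. The median log2 fold change was -0.01 over the members and 0.00 over all genes, and 83 of the 87 members lay within 0.2 of 0. Large subunit proteins had a median of -0.01, as did small subunit proteins. The DESeq2 test called 2 of 86 members with an adjusted p, both higher, against 0.192% of genes in either direction. Those were Rpl10 (0.32, adjusted p = 0.000415) and Rpl24 (0.25, adjusted p = 0.0274).

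Rpl10 had the smallest p. Its level was 197, 200.1 and 201 CPM in untreated cells, 173, 188 and 196 CPM in siLuc and 221, 231 and 243 CPM in siStag3, where the third value of each group is here and below the Set 3 library. All 3 siStag3 libraries were above all 6 others. The log2 fold change from siLuc to siStag3 was 0.32 (SE 0.0552, edgeR adjusted p = 0.0873), with 0.32 within Set 1 and 0.31 within Set 3. Its identical copy Rpl10-ps3 was at 1034, 1161 and 1291 CPM in untreated cells, 1169, 1099 and 1262 in siLuc and 1075, 1149 and 1239 in siStag3, so that the groups overlapped fully. Rpl10-ps3 differed by -0.03 (SE 0.0598, edgeR adjusted p = 0.912). With the counts of both summed, a choice made after seeing the data, the difference was 0.02 (SE 0.0567, edgeR adjusted p = 0.918). Rpl10-ps3 holds 5.69 times the counts of Rpl10, so the sum cannot decide whether Rpl10 itself changed.

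Rpl24, a large subunit protein near the bridge between the subunits, was at 715, 771 and 851 CPM in untreated cells. It was at 664, 632 and 707 CPM in siLuc and at 741, 783 and 854 CPM in siStag3. The siLuc libraries were below every library of the other groups. The siStag3 level exceeded that of siLuc by 0.25 on the log2 scale (SE 0.0544, edgeR adjusted p = 0.221) and that of untreated cells by 0.03 (SE 0.0544, edgeR adjusted p = 0.829). Rps13, the third by p, was at 41.0, 38.0 and 51.1 CPM in siLuc and at 46.1, 51.5 and 51.8 CPM in siStag3, which overlap. Its difference was 0.21 (SE 0.0767, edgeR adjusted p = 0.513).

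**Figure D1:**
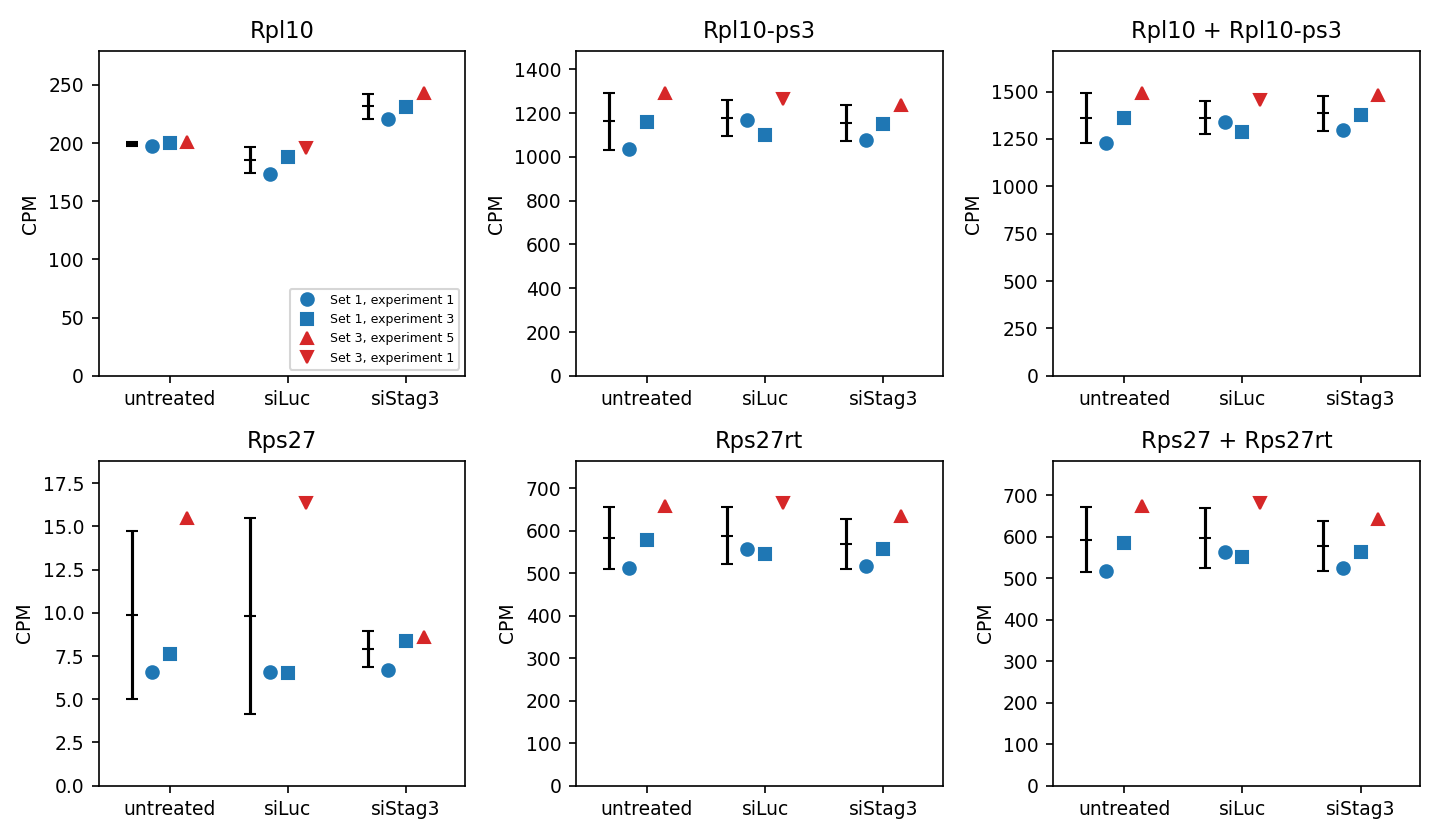
CPM (vertical axes, from 0) in the 9 libraries by group for Rpl10, Rpl10-ps3 and their sum (top) and for Rps27, Rps27rt and their sum (bottom). Points are libraries, blue for Set 1 and red for Set 3, and bars at the left of each group are the mean and SD (n = 3). Rpl10 reaches 221 to 243 CPM in siStag3, and the sum with its copy, between 1231 and 1492 CPM, overlaps between the groups.

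The comparison of siLuc with untreated cells addresses transfection with the control siRNA. Mitochondrial genes took 5.98% to 6.73% of counts in siLuc and 3.48% to 5.33% in untreated cells, with no overlap (two-sided exact permutation p = 0.1, the smallest possible), and the part of this in the results below was not tested. Rpl24 was the single member that passed the threshold, against 4.2% of all genes in either direction and 2.55% lower. It fell by 0.22 on the log2 scale (SE 0.0544, edgeR adjusted p = 0.0404). An unadjusted p under 0.05 was found for 13 members (14.9%) and for 27.8% of all genes. The call of Rpl24 was lost in several alternatives, among them the fit with no set term (adjusted p = 0.58) and 5 of the 6 fits that left out a library. The members' median was -0.04, and the medians of the large and the small subunit proteins were -0.05 and -0.04.

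Next by p in this comparison were Rps29 and the paralog Rpl39l. Rps29 was at 568, 560.3 and 778 CPM in untreated cells, 505, 512 and 578 CPM in siLuc and 491, 496 and 686 CPM in siStag3. In each set the untreated libraries were the higher ones. Its difference from untreated cells to siLuc was -0.24 (SE 0.0637, edgeR adjusted p = 0.050, just above the threshold), and to siStag3 -0.19 (SE 0.0637, edgeR adjusted p = 0.143). Rpl39l was lower in siLuc, with a difference of -0.25 (SE 0.0747, edgeR adjusted p = 0.0677), and in siStag3 the difference was -0.23 (SE 0.0746, edgeR adjusted p = 0.136). None of these passed.

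From untreated cells to siStag3, 0 of 87 members passed in edgeR, against 2.53% of all genes, and 10 members (11.5%) had an unadjusted p under 0.05, against 17% of all genes. DESeq2 called 1 of 86, Rpl10, against 3.39%. For Rpl10 the difference was 0.21 (SE 0.0551, edgeR adjusted p = 0.0586). With its copy summed it was 0.03 (edgeR adjusted p = 0.83). The median was again -0.04. This comparison and the one before share the untreated libraries, so their values are not independent.

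**Figure D2:**
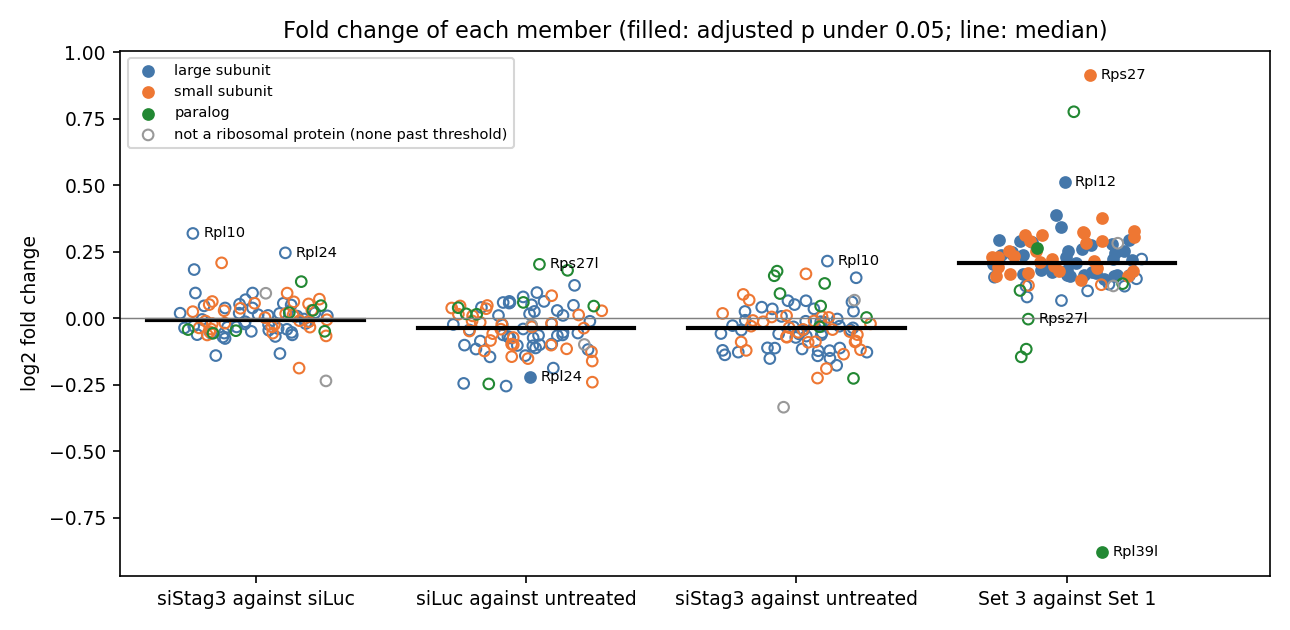
Log2 fold change of each of the 87 members (vertical axis) in 4 comparisons, coloured by class, filled where the adjusted p was under 0.05, with a line at the median. The 3 comparisons of groups centre on -0.01, -0.04 and -0.04, and Set 3 against Set 1 on 0.21, with Rps27 highest and Rpl39l lowest.

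Taken as 1 quantity, the members held overlapping shares of counts in the 3 groups. The share was 6.26%, 6.62% and 7.90% in untreated cells, 6.29%, 6.13% and 7.02% in siLuc and 5.91%, 6.22% and 7.57% in siStag3. The groups overlapped, and the Set 3 library was the highest in each. Untreated cells had a mean share of 6.93% ± 0.861, siLuc cells of 6.48% ± 0.477 and siStag3 cells of 6.57% ± 0.884 (SD, n = 3). Two-sided exact permutation tests gave p = 0.9 for siStag3 against siLuc, p = 0.6 for siLuc against untreated and p = 0.5 for siStag3 against untreated, where 0.1 is the smallest value the design allows. The difference of siStag3 from siLuc was -0.142 percentage points within Set 1 and 0.55 within Set 3. A share of bulk RNA cannot tell less RNA per cell from fewer cells of a type.

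**Figure D3:**
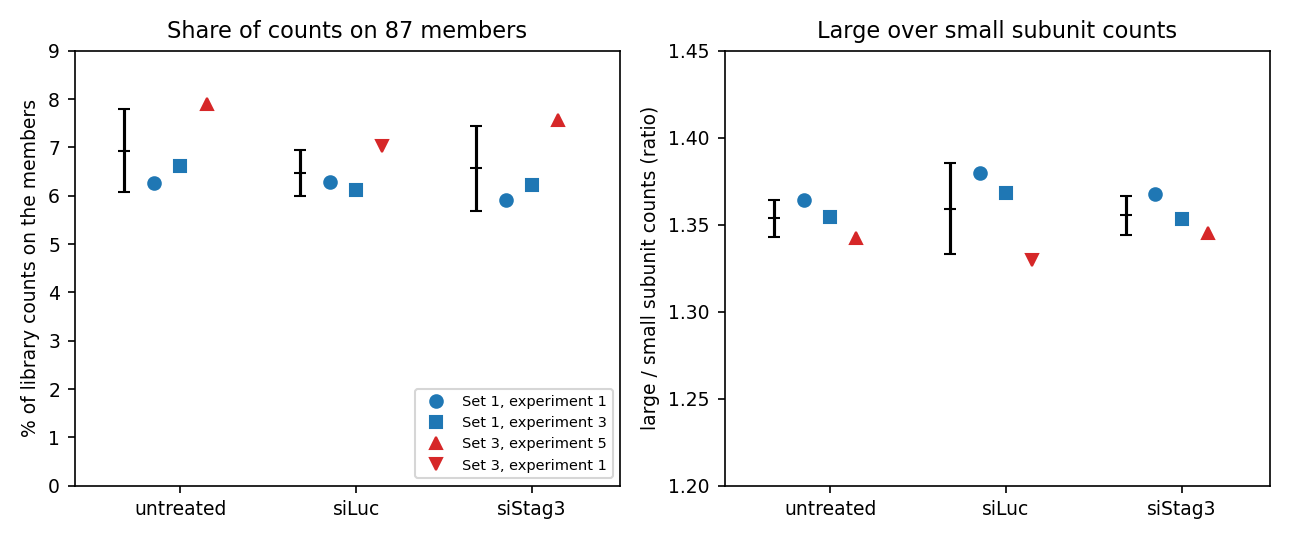
Percent of each library's counts on the 87 members (left, axis from 0) and the ratio of large to small subunit counts (right, axis not from 0) by group. Blue points are Set 1 and red points Set 3, with the mean and SD of each group (n = 3) at its left. The Set 3 libraries lie at 7.02% to 7.90% and those of Set 1 at 5.91% to 6.62%.

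More members passed the threshold between the sets than between the groups. In Set 3, 67 of 87 members rose, against 21.4% of all genes called higher, and 1 fell, Rpl39l, against 21.2% called lower. The members' median was 0.21, with 0.00 over all genes, and 83 of 87 were above 0. Among large subunit proteins 37 of 46 rose and all 46 were above 0, and among small subunit proteins 29 of 31 rose and all 31 were above 0. Of the 8 paralogs and copies, Rps27rt rose, Rpl39l fell and 6 did not pass. Neither Rps19bp1 nor Rps23rg1 passed.

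The share of counts on the members was 7.02% to 7.90% in the 3 Set 3 libraries and 5.91% to 6.62% in the 6 Set 1 libraries, with no overlap. The difference was 1.26 percentage points (two-sided exact permutation p = 0.0238, the smallest this test can give for 3 against 6 libraries). Mitochondrial genes took 3.48% to 5.98% of counts in Set 3 and 4.41% to 6.78% in Set 1. Without them in the total the difference was 1.22 percentage points. The ratio of large to small subunit counts was 1.33 to 1.35 in Set 3 and 1.35 to 1.38 in Set 1 (difference -0.0255, two-sided exact permutation p = 0.0238).

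The untreated Set 3 library weighed most in this comparison. It was the deepest of the 9, had the highest share on the members and the lowest mitochondrial share, 3.48%. Without it, 32 members rose and 2 fell, against 14.8% of genes called higher, and the median was 0.18. After correction of each library for GC content 59 members rose and 3 fell, against 20.6% of genes called higher, with a median of 0.18. Shares of genes called lower are not given for these 2 alternatives, so the falls are not compared with other genes. When libraries were scaled by total count alone, 79 rose, against 26.9%, while the median of all genes moved to 0.06. What the sets are, and so whether culture, time or library preparation separates them, cannot be told from these data.

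The stalk of the large subunit recruits translation factors. Its protein Rplp2 was at 446, 477, 423, 441, 427 and 414 CPM in the Set 1 libraries and at 608, 545 and 569 CPM in Set 3. It rose by 0.39 (SE 0.0456, edgeR adjusted p = 3.52e-05), and the sets did not overlap. After GC correction the rise of Rplp2 was 0.24 (edgeR adjusted p = 7.35e-05). Rplp1 rose by 0.34 (SE 0.0656, edgeR adjusted p = 0.00113), but by 0.14 after GC correction (edgeR adjusted p = 0.0173), and its siLuc library of Set 3, at 915 CPM, lay below the highest Set 1 library, at 965 CPM. Rplp0, the base of the stalk, rose by 0.20, close to the members' median (SE 0.0465, edgeR adjusted p = 0.00362). Rpl12, the anchor beside them, was at 64.8 to 94.2 CPM in Set 1 and at 106, 107 and 114 CPM in Set 3. It rose by 0.51 (SE 0.0818, edgeR adjusted p = 0.00048).

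Of the small subunit, Rps27 showed the largest rise. It was at 6.59, 7.62, 6.59, 6.51, 6.69 and 8.38 CPM in Set 1, and at 15.5, 16.3 and 8.61 CPM in the untreated, siLuc and siStag3 libraries of Set 3. The siStag3 library thus lay close to Set 1. Rps27 rose by 0.92 (SE 0.178, edgeR adjusted p = 0.00332). Summed with the identical Rps27rt it rose by 0.27 (SE 0.0501, edgeR adjusted p = 0.000824). Rps27rt, with most of the counts, was at 511 to 578 CPM in Set 1 and at 659, 665 and 634 CPM in Set 3, a rise of 0.26. Rps29 rose by 0.38 (SE 0.0544, edgeR adjusted p = 0.000158). Rps10, which lies near the entry of the mRNA channel, was at 491 to 567 CPM in Set 1 and 588 to 720.3 CPM in Set 3. It rose by 0.33 (SE 0.0512, edgeR adjusted p = 0.000278), but by 0.06 after GC correction (edgeR adjusted p = 0.38).

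Several further members have roles known outside the ribosome or in disease. Rpsa, also known as a laminin receptor, rose by 0.29, from a mean of 2059 ± 59.1 CPM in Set 1 (n = 6) to 2522 ± 163 CPM in Set 3 (n = 3). Rps19, mutated in Diamond-Blackfan anaemia, rose by 0.28 and Rps6, the target of S6 kinase, by 0.21. Rpl11, which with Rpl5 binds Mdm2, rose by 0.26. Rpl5 itself differed by 0.22 but did not pass (SE 0.0949, edgeR adjusted p = 0.0826). Rpl41 rose by 0.29 and Rps24 by 0.20.

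**Figure D4:**
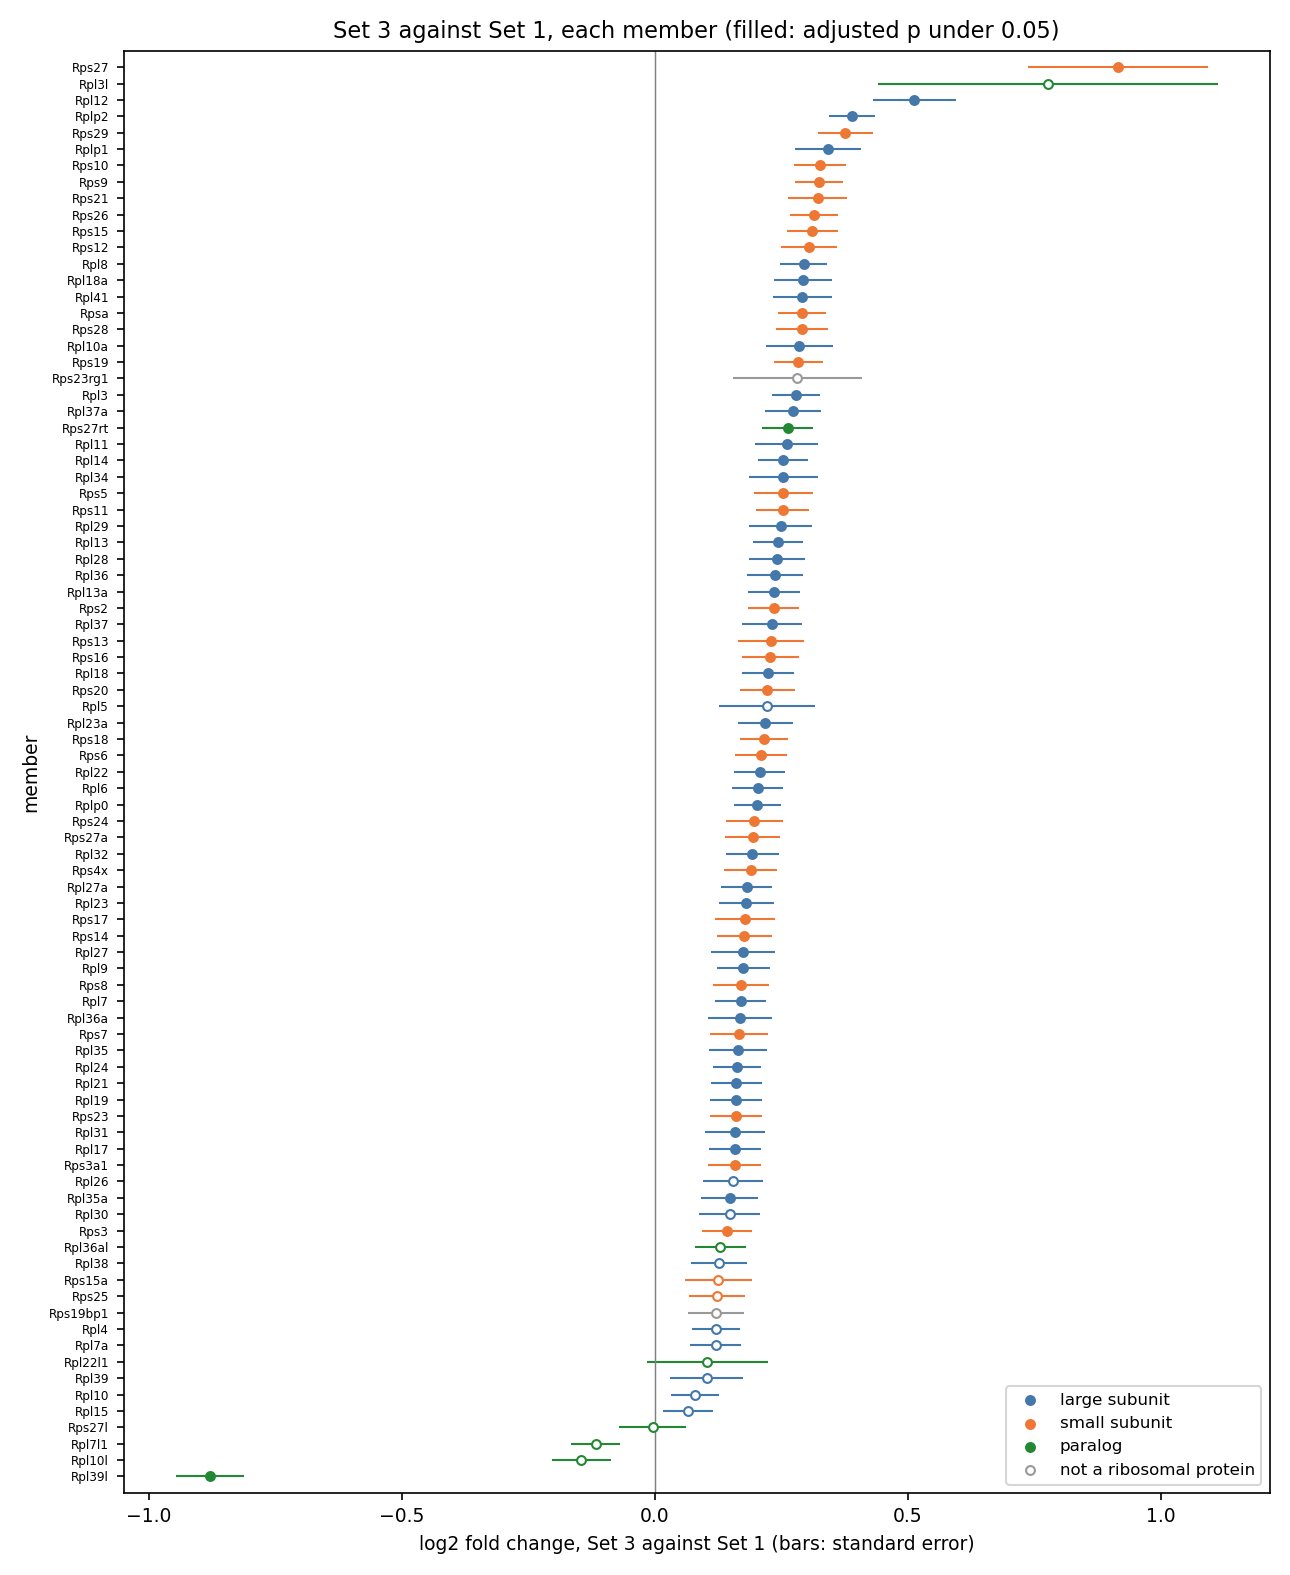
Log2 fold change from Set 1 to Set 3 (horizontal axis) with its standard error for each of the 87 members (vertical axis), sorted and coloured by class, filled where the adjusted p was under 0.05. All 46 large and all 31 small subunit proteins lie right of 0, and Rpl39l lies alone near -0.88.

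Rpl39l is a paralog known mainly from male germ cells. It was at 102, 111, 101, 92.7, 92.8 and 97.6 CPM in Set 1 and at 65.4, 46.7 and 51.1 CPM in Set 3, with no overlap. Rpl39l fell by 0.88 on the log2 scale (SE 0.0674, edgeR adjusted p = 1.14e-06), with -0.70, -1.05 and -0.90 in untreated, siLuc and siStag3 cells. Its partner Rpl39 differed by 0.10 (SE 0.0725, edgeR adjusted p = 0.272). Per coding base Rpl39l was 21.6% to 28.7% of Rpl39 in Set 1 and 9.42% to 14.7% in Set 3. Reads over untranslated parts enter both levels, in transcripts of 805 bases for Rpl39l and 612 for Rpl39. Rpl39l shares 13.8% of its 31-base words with other genes.

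No other paralog passed the threshold downwards. Rps27l was at 181 to 242 CPM in Set 1 and 205 to 241 CPM in Set 3 and differed by 0.00 (SE 0.0664, edgeR adjusted p = 0.971), while its partner's copy Rps27rt rose. It was 31.1% to 43.6% of Rps27rt per coding base. Rpl7l1 differed by -0.12 (SE 0.0489, edgeR adjusted p = 0.0691) and Rpl7 rose by 0.17. Rpl10l, an autosomal copy known from the testis, differed by -0.15 (SE 0.0582, edgeR adjusted p = 0.0577). Rpl22l1 differed by 0.10 (SE 0.119, edgeR adjusted p = 0.518) and Rpl22, its partner, rose by 0.21. Rpl36al did not pass (0.13, SE 0.0502, edgeR adjusted p = 0.051), and Rpl36a rose by 0.17. Rpl3 rose by 0.28, and Rpl3l, at 4 to 24 counts per library, is too low to place (0.78, SE 0.336, edgeR adjusted p = 0.0771).

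**Figure D5:**
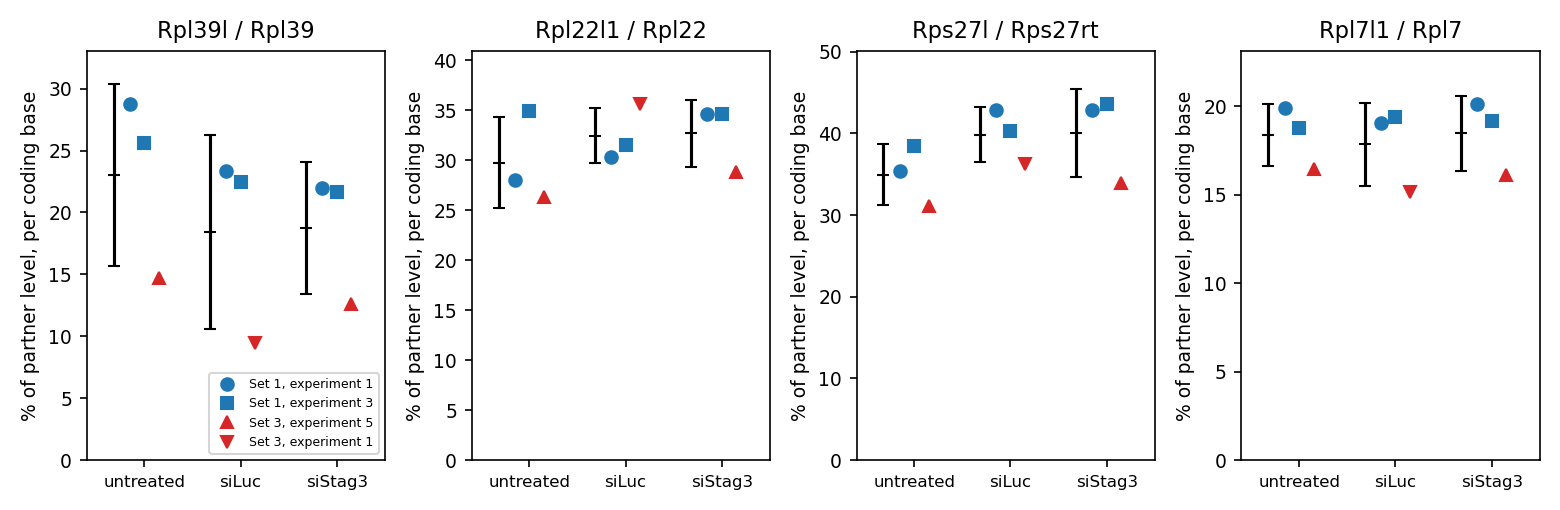
Level of 4 paralogs as a percent of the partner's level per coding base (vertical axes, from 0), by group, with blue points for Set 1, red for Set 3 and the mean and SD of each group (n = 3) at its left. Rpl39l lies at 21.6% to 28.7% of Rpl39 in Set 1 and at 9.42% to 14.7% in Set 3, while the values of Rpl22l1 overlap between the sets.

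Whether a comparison of groups differed between the sets was tested with an interaction. Of siStag3 against siLuc, 2 of 87 members passed, against 1.12% of all genes. Rps27 differed by 0.19 within Set 1 and -0.92 within Set 3 (interaction -1.12, SE 0.222, edgeR adjusted p = 0.0492), and the interaction was -0.05 with Rps27rt summed (edgeR adjusted p = 0.836). Rplp1 was at 862, 866 and 915 CPM in siLuc and at 818, 847 and 1204 CPM in siStag3, so the Set 3 siStag3 library stood apart (interaction 0.45, SE 0.0935, edgeR adjusted p = 0.0496). Leaving out any 1 of the 4 Set 1 libraries of these groups ended both calls. Of siLuc against untreated, 0 members passed in edgeR and 15 had an unadjusted p under 0.05, against 0.014% and 7.92% of all genes. Set 3 has 1 library per group, so the spread in these tests comes from Set 1 and each lone library is assumed to vary likewise. Its siLuc library is of another experiment number, so set and experiment cannot be told apart.

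The start sites were searched for the TOP pattern, which many of these mRNAs are known to carry. Whether it bears on the difference between the sets was not tested. RefSeq promoters (GRCm38.p6) were found for 67 members by symbol. A start with C followed by at least 4 bases that are each C or T, on the gene's own strand from the annotated first base, was present in 14 of the 67 (20.9%) and in 813 of 27025 genes with a promoter (3.01%). Of the 48 matched members that rose in Set 3, 11 had it, and of the other 19, 3 had it. A start annotated a few bases off loses the pattern, so a missing match says only that it is not at the annotated base. The windows below hold 15 bases before and 15 from the annotated start, with the run in capitals, for members whose values are given above and Rpl35, which has the longest run among those that rose.
Rps27 (chr3:90213634-90213663, minus strand): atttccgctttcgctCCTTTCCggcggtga
Rps27rt (chr9:114982725-114982754, minus strand): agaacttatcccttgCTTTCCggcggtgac
Rps6 (chr4:86857353-86857382, minus strand): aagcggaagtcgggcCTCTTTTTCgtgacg
Rps10 (chr17:27635230-27635259, minus strand): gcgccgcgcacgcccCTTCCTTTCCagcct
Rpl35 (chr2:39005117-39005146, minus strand): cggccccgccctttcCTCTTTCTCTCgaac
Rplp2 (chr7:141447636-141447665, plus strand): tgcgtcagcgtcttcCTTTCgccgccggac
Most matched members that rose also lack the run at the annotated start, so the windows are examples and do not set members that rose apart. The longest run of the 14, at 13 bases, is in Rpl15, which is not among the members that rose and is not shown. In Rpl22l1 a stretch of C and T begins 1 base after the annotated start. No run stands at the annotated start of Rpl24, the 1 member called in siLuc, of Rpl39l or of Rpl22l1, whose windows follow.
Rpl24 (chr16:55966260-55966289, plus strand): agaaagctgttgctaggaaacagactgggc
Rpl39l (chr16:10170213-10170242, plus strand): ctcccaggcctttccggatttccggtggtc
Rpl22l1 (chr3:28805493-28805522, plus strand): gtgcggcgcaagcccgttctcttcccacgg
The copy Rps27rt begins 1 base into the start of Rps27, and its first 38 bases are the same as those of Rps27 from there. Of the 50 bases before, 8 are identical.

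Genes around the ribosomal proteins were read from lists. Fau and Rack1, ribosomal proteins under other symbols, rose in Set 3 by 0.26 and 0.25. Between the sets 21.4% of all genes were called higher and 21.2% lower. Of 16 other translation genes known for a TOP start, 5 rose, among them Eif3f (0.29) and Eef1b2 (0.28), subunits of an initiation and an elongation factor, and 1 fell, Eif3e (-0.19). Of 30 ribosome assembly factors, against the same 21.4% and 21.2%, 3 rose, Nob1 (0.23), Fbl (0.22) and Eif6 (0.18), and 9 fell. Heatr1, needed for pre-ribosomal RNA processing, was at 301 to 348 CPM in Set 1 and at 252, 242 and 244 CPM in Set 3, a difference of -0.43 (SE 0.0525, edgeR adjusted p = 5.15e-05). Ddx21, a nucleolar helicase, differed by -0.34 and the export adaptor Nmd3 by -0.31, both past the threshold.

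In the rRNA transcription list 3 of 13 genes rose and 1 fell between the sets. In the list of mTORC1 and TOP mRNA control 3 of 16 rose and 3 fell, with Rps6kb2 (0.43) highest and Larp4 (-0.53) lowest. Neither rise count stands far from the 21.4% of all genes called higher. Of 5 genes around p53 and Mdm2, Ccng1 (-0.41) and Mdm2 (-0.30) fell, against 21.2% of all genes called lower. No gene of the translation, assembly, rRNA, mTORC1 and p53 lists passed in siStag3 against siLuc or in siStag3 against untreated. In siLuc against untreated, where 4.2% of all genes passed, 1 of the 16 genes of mTORC1 and TOP mRNA control did. That was Rragd, a GTPase that activates mTORC1, which rose by 0.24 (SE 0.0518, edgeR adjusted p = 0.0243). Of the 5 genes around p53 and Mdm2, 1 passed there, Cdkn1a, the p53 target p21 (-0.35, SE 0.0702, edgeR adjusted p = 0.0197). Ccng1 (0.30, edgeR adjusted p = 0.0589), Mdm2 (0.17, edgeR adjusted p = 0.0969) and Mdm4 (0.08) differed the other way without passing. Trp53 was at -0.07 and did not pass.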

How the data were processed

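The authors deposited raw counts per gene, whole numbers in 9 columns. FastQC, Salmon, DESeq2 and GRCm39 are named in the submitters' processing notes, with no role or order. The annotation release, the strand setting and the assignment of reads that match several genes are not given in the sources used here. The smallest row sum is 9 counts, over 16636 genes. Columns name the group, set and experiment, not the replicate numbers of the sample titles.

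Counts were tested with edgeR 4.0.16 in R 4.3.3 (TMM, filterByExpr, robust quasi-likelihood F test) in 1 fit of all 9 libraries with group and set as terms. The test of a difference between sets added their interaction. P-values are two-sided and Benjamini-Hochberg adjusted over 14246 genes, with a threshold of 0.05. SEs were obtained from the F statistic (absolute log2 fold change over its square root). CPM values use TMM-scaled totals, except the sums of cell type markers and the floor below, which use raw totals. Depth limits low genes: 3 counts equal 0.0674 to 0.102 CPM, which covers counting error only. Shares of counts were compared by exact permutation (scipy 1.17.1). Coding length, GC content and 31-base words came from GENCODE M21 (GRCm38), which holds 16604 of the genes, and start sites from RefSeq. Coordinates are of those builds, not of the authors'.

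Alternatives were other scalings and filters, a GC correction in 20 bins, DESeq2 1.42.0, other terms, Set 1 alone and leaving out each library. Summing Rps27 with Rps27rt, Rpl10 with Rpl10-ps3 and Rpl35 with Gm2000 was added after the data were seen. The fit was also run on data simulated with the same relative spread for all genes. Its outcome is not given here, and it does not test the calls reported above. The members and lists were chosen with earlier results of these data known. Named members are the stalk proteins, Rpsa, Rps6, Rps19, Rpl5, Rpl11, paralog pairs, the 3 highest and 3 lowest by level per length, the 3 of widest range, and per comparison up to 6 rises and 6 falls past the threshold or, with fewer than 3, the 3 of smallest p. Rps27rt, Rpl10-ps3, Rpl35 and Gm2000 were named for their sequence. 1 gene of the lists is not reported here.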

Additional observations from a re-analysis of the deposited data

Results flagged for a closer look

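For 2 members the interaction of group and set in edgeR was just past the threshold for siStag3 against siLuc, which sets a difference within Set 1 beside one within Set 3. Rps27 had an interaction of -1.12 (SE 0.222, adjusted p = 0.0492), and -0.05 with the counts of Rps27rt added. Rps27rt held 62.0 times the counts of Rps27, so the summed value mostly describes Rps27rt and cannot decide about Rps27. Rplp1 had an interaction of 0.45 (SE 0.0935, adjusted p = 0.0496), and 0.18 after GC correction (adjusted p = 0.718). Set 3 has 1 library per group, and the siLuc one is of another experiment, so the spread comes from Set 1 alone. Both calls were lost when any 1 Set 1 library of these groups was left out (adjusted p 0.162 to 0.239 over the 2 members). Those fits have fewer libraries to take the spread from, and calls this close to the threshold are easily lost, so the loss itself decides nothing. With 1 library per group in Set 3, a difference between the sets is not established.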

How the results depend on the processing

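The main counts of members past the threshold were 0 (siStag3 against siLuc), 1 (siLuc against untreated), 0 for siStag3 against untreated, 68 for Set 3 against Set 1 and 2 for the difference between sets of siStag3 against siLuc. Among all genes, in the same order, 0.0281%, 4.2% and 2.53% passed, then 21.4% higher and 21.2% lower, then 1.12%. Shares of all genes are not given for most alternatives below. Those counts show how the calls moved, not how members compare with other genes. For siStag3 against siLuc the GC correction gave 2 and DESeq2 2 (0.192% of all genes in DESeq2). For siStag3 against untreated the GC correction gave 1 and DESeq2 1 (3.39% of all genes in DESeq2). For siLuc against untreated the count was 0 with no set term, with a block for each set and experiment and in Set 1 alone, 2 with a mean of at least 50 counts and with copies summed, 3 with total count only, and 4 with the GC correction, with DESeq2 and with the 6 libraries compared. For the difference between sets of siStag3 against siLuc it was 0 with DESeq2 size factors, TMM from other genes, a mean of at least 50 counts and the GC correction, and 1 with total count only and with copies summed. Leaving out 1 library gave 0 to 0 members for siStag3 against siLuc, 0 to 1 in the comparison of siLuc against untreated, 0 to 3 for siStag3 against untreated, 34 to 69 for Set 3 against Set 1, 0 to 0 for the difference between sets of siStag3 against siLuc and 0 to 6 for that of siLuc against untreated. The 34 came without the untreated Set 3 library and the 3 without the siStag3 Set 3 library. The 6 came without the untreated Set 1 library of experiment 1. The share of counts differed by -0.413 to 0.417, -0.782 to 0.0367, -0.863 to 0.126 and 1.06 to 1.50 percentage points when 1 library was left out, in the order siStag3 against siLuc, siLuc against untreated, siStag3 against untreated and Set 3 against Set 1. Without any 1 of the Set 3 libraries the exact permutation p of the last was 0.0714. That is the smallest value the test can give for 2 against 6 libraries. This p therefore cannot show whether the difference depends on 1 library. The causes were not tested. No paired analysis was possible because no column header shows a replicate number of the sample titles, which concerns the titles' numbers alone. The block for each set and experiment in the headers is a pairing by header, and it left 0 members in each of the 3 comparisons of groups. In that fit the Set 3 library of siLuc is alone in its block and adds nothing on siLuc, which is then compared within Set 1 only.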

Other observations

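Rpl9-ps6, which shares 94.3% of the coding 31-base words of Rpl9, had 0, 403 and 101 counts in untreated cells, 0, 128 and 340 counts in siLuc and 167, 0 and 26 counts in siStag3, with neither the groups nor the sets apart. Wdr89, whose locus shares 80.3% of the coding words of Rplp2, had 11199 counts over the 9 libraries against 152215 for Rplp2.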
